A study of Mus musculus with 10 samples.

Results

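Runx1, Runx2 and Runx3, their partner Cbfb and the corepressors Runx1t1, Cbfa2t2 and Cbfa2t3 were followed by cell class in E0771 mammary tumors. These 7 genes were chosen by name, and all 7 were found among the 31053 genes of the count tables. Runx proteins bind DNA through their Runt domain, and Cbfb, which does not bind DNA by itself, strengthens that binding. Runx1 directs blood cell formation, Runx2 bone formation and Runx3 the programs of cytotoxic T cells. Runx1t1, Cbfa2t2 and Cbfa2t3 make up the ETO family, nuclear corepressors that carry histone deacetylases to transcription factors, and Runx1t1 is the gene fused to RUNX1 in a form of acute myeloid leukemia.

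E0771 is a mouse mammary carcinoma line of the C57BL/6 strain. It was injected in the 4th mammary fat pad of WT mice and of their EC-AGO1-KO littermates, all females aged 16 weeks. In the KO mice a VE-Cadherin (Cdh5) promoter drives Cre and both Ago1 alleles are floxed, which is meant to remove Ago1 from endothelial cells of the host and leaves the injected tumor cells as they were. Whether the WT littermates carried Cre was not given in the sources used here. Tumors were taken at day 21 and profiled by droplet 3′ single-cell RNA-seq in 10 libraries, 5 WT libraries from 5 tumors and 5 KO libraries from 7 tumors. Batch 1 held 1 library of each group and batch 2 held 4 of each, WT 1, 3, 4 and 5 against KO 1, 2+3, 4 and 5+6, where KO 2+3 and KO 5+6 each pool 2 small tumors.

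A barcode counted as a cell when it held between 200 and 7000 genes and mitochondrial genes took no more than 10% of its UMIs, which left 65298 cells. Libraries held 8323896 to 10591577 UMIs in all. The batches stood apart, with medians of 3862 to 4049 UMIs per cell in batch 1 and 595 to 1142 in batch 2, so levels are given within batch. A pair of libraries shared at most 28 barcodes. The classes were named from marker genes with the 7 members kept out of the clustering. They held 55387 tumor-like, 2123 myeloid-like, 1394 T-like, 588 fibroblast-like, 501 dendritic-like, 430 epithelial-like, 266 pericyte-like, 208 endothelial-like and 65 B-like cells. Another 4336 cells, of clusters with too few markers or a high level of tumor transcripts, stayed unnamed. Epithelial-like cells came from batch 2 alone and B-like cells from batch 1 alone. The deletion itself could not be checked, since endothelial-like cells held 0 Ago1 UMIs in both groups, which allows a level of up to 47.6 CPM for the WT sum and 36.5 CPM for the KO sum. CPM here are UMIs per 1000000 UMIs of a class in a library, without Actb. In sums over a whole library, fewer cells of a type and less RNA per cell cannot be told apart.

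Runx1 was found in every named class. Its batch 2 mean level was 2863 ± 283 CPM (SD, n = 5 libraries) in epithelial-like cells and 2590 ± 393 CPM (n = 7) in myeloid-like cells, the lineage in which it is best known. Fibroblast-like cells followed at 1916 ± 422 CPM (n = 8) and dendritic-like cells at 1682 ± 380 CPM (n = 7). Lower levels were seen in pericyte-like (1207 ± 313 CPM), T-like (1115 ± 145 CPM), tumor-like (1078 ± 61.5 CPM) and endothelial-like cells (619 ± 214 CPM, n = 5). Free RNA, read from barcodes with at most 50 UMIs, held Runx1 at 576 CPM. In endothelial-like cells 40 Runx1 UMIs were counted where free RNA would give 9.29, and 5 of 5 libraries were above their expected number. In batch 1 the levels were 743 CPM in fibroblast-like (1 library), 527 CPM in B-like, 412 CPM in myeloid-like, 315 CPM in T-like, 297 CPM in tumor-like and 286 CPM in dendritic-like cells. Tumor-like cells held 84.9% of all Runx1 UMIs of kept cells, and were 84.8% of those cells.

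**Figure D1:**
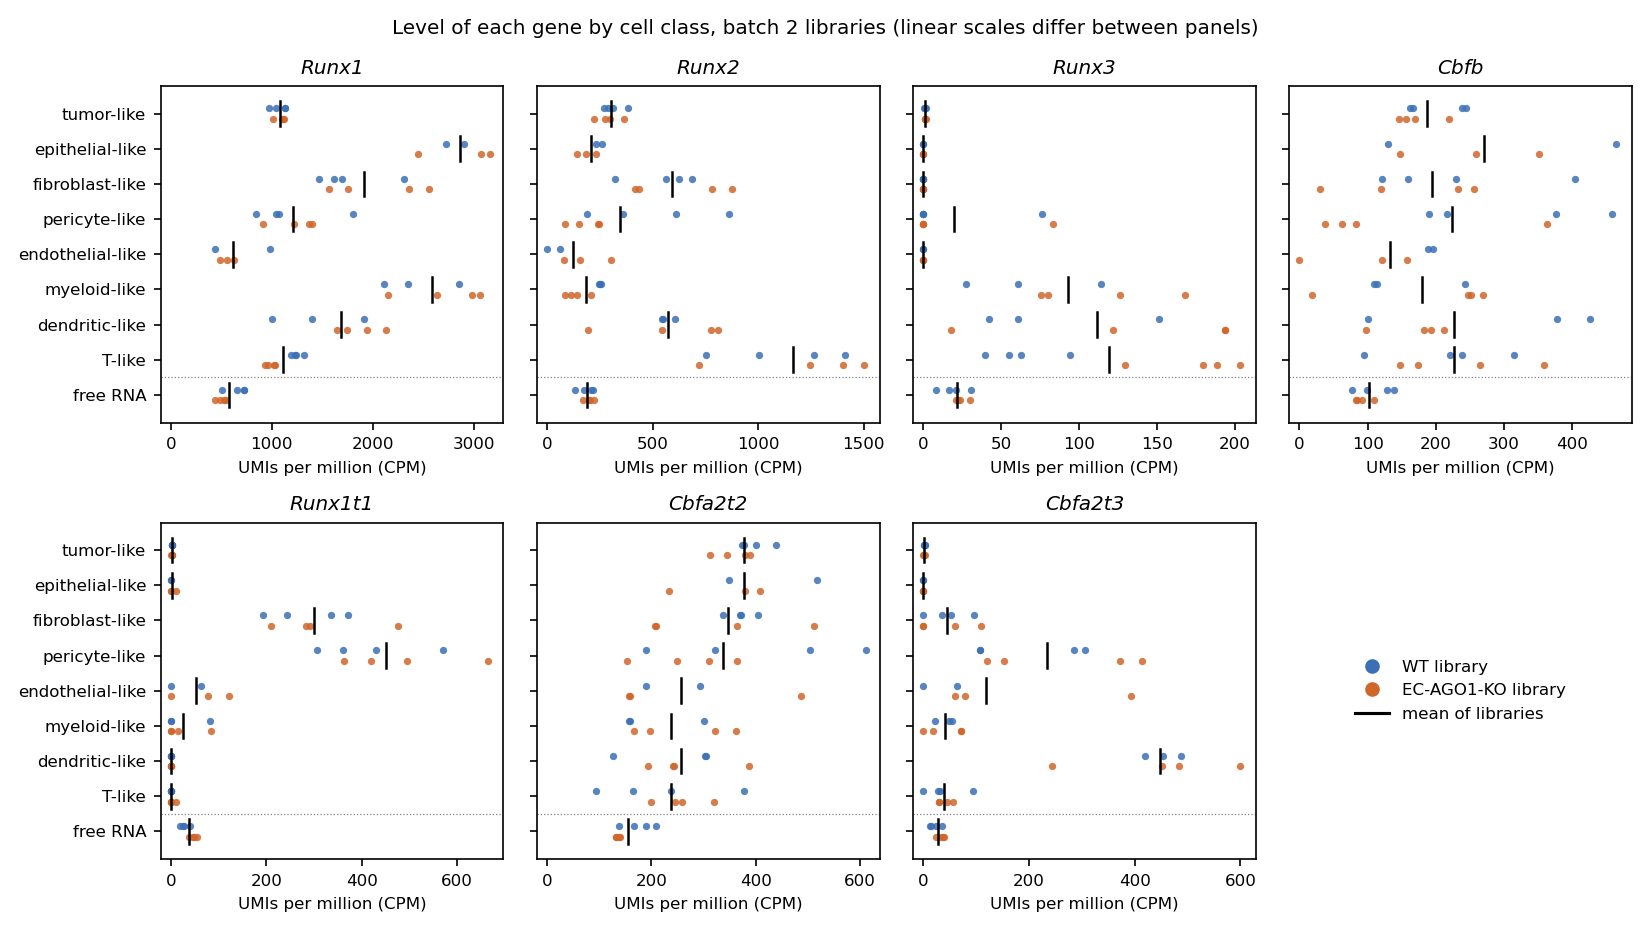
Levels of the 7 genes in batch 2, 1 panel per gene, with CPM on a linear x axis that differs between panels and cell classes on the y axis. Each point is 1 library (blue WT, orange EC-AGO1-KO), the black bar is the mean of the libraries, and the bottom line is free RNA. Runx2 and Runx3 were highest in T-like cells, Runx1t1 in pericyte-like and fibroblast-like cells and Cbfa2t3 in dendritic-like cells, while Cbfb and Cbfa2t2 were spread over all classes.

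Runx2, the osteoblast factor that also acts in lymphocytes, was highest in T-like cells. It had a lowest, median and highest library of 721, 1257 and 1501 CPM in batch 2 (mean 1163 ± 302 CPM, n = 8). Fibroblast-like cells reached 590 ± 191 CPM (n = 8), dendritic-like cells 575 ± 202 CPM (n = 7), pericyte-like cells 344 ± 264 CPM and tumor-like cells 302 ± 52.1 CPM. T-like cells were above fibroblast-like cells in 8 of 9 libraries, by 0.94 ± 0.73 (mean and SD of the log2 difference of CPM plus 10; exact two-sided sign-flip permutation p = 0.00781, adjusted p = 0.191). Within the T-like class the level differed between clusters. The batch 2 cluster led by Ikzf2, Tox, Trac and Ctla4 held 422 Runx2 UMIs, or 1605 CPM, against 114 UMIs, or 669 CPM, in the cluster led by Satb1, Lef1 and Gzmb. The latter cluster also held the mast cell markers Kit, Cpa3, Mcpt4 and Tpsb2 with 34, 19, 55 and 21 UMIs, against 13, 0, 0 and 0 in the former, and their part in the levels was not tested. In the dendritic-like class, the cluster with Xcr1 and Clec9a was at 885 CPM and the cluster with Ccr7 and Fscn1 at 294 CPM. The tumor transcript Pvt1 was at 0.0531 and 0.644 of its tumor-like level in these clusters, and its part in their member levels was not tested. B-like cells held 0 Runx2 UMIs among 62170, which allows up to 48.3 CPM.

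Runx3, which silences Cd4 in cytotoxic T cells, was an immune-cell transcript. Batch 2 levels were 119 ± 65.3 CPM (n = 8) in T-like, 112 ± 72.4 CPM (n = 7) in dendritic-like and 93.1 ± 46.4 CPM (n = 7) in myeloid-like cells. In batch 1, T-like cells reached 268 CPM and myeloid-like cells 144 CPM. No Runx3 UMI was found in fibroblast-like cells (0 of 456768 UMIs, which allows up to 6.57 CPM), epithelial-like cells (up to 12.6 CPM) or endothelial-like cells (up to 20.7 CPM). In batch 1 myeloid-like cells held 259 and T-like cells 58 Runx3 UMIs, and in the batch 2 libraries with enough cells 38 and 65. Unlike Runx2, Runx3 was much the same in both batch 2 T-like clusters, at 152 and 147 CPM.

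The promoters of the Runx genes are known to carry sites for the Runx proteins themselves. In the RefSeq windows of GRCm38.p6, from 250 bases before to 50 bases after each start site, the longest stretch common to a window of Runx1, of Runx2 and of Runx3 had 18 bases and held 2 copies of ACCACA, the core of the Runx site. The 28 bases around it are shown because the 3 genes share it despite unlike class patterns, with the ACCACA copies in capitals, 5′ to 3′ on the strand of the gene.
Runx1, chr16:92826026-92826053, minus strand, in a first exon: ataaacaACCACAgaACCACAagttggg
Runx2, chr17:44814584-44814611, minus strand, in a first exon: acaaacaACCACAgaACCACAagtgcgg
Runx3, chr4:135120504-135120531, plus strand, before the first exon: tccctcaACCACAgaACCACAaggccag

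The windows belong to the outermost start site of each gene, and 6 of the 7 members had a window in the table. The 18-base stretch was found in 4 of 32851 windows (0.0122%), namely these 3 and an antisense window that overlaps that of Runx3. ACCACA on either strand was in 16.8% of all windows, and at least 2 copies were in 1.81%. Among the 9 member windows, those of Cbfb, Cbfa2t2 and Cbfa2t3 and the second windows of Runx1 and Runx3 did not hold ACCACA. Counts taken at 3′ ends do not tell which start site was used.

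Cbfb was even across classes. Its batch 2 means ran from 133 ± 79.9 CPM in endothelial-like to 270 ± 141 CPM in epithelial-like cells (n = 5 each), with 188 ± 39.5 CPM in tumor-like, 226 ± 87.2 CPM in T-like (n = 8 each) and 179 ± 97.4 CPM in myeloid-like cells (n = 7). Every class thus showed a level of this shared partner, also the classes without a Runx3 UMI. No pair of neighbouring classes in its order had an adjusted p under 0.05 in the exact sign-flip permutation test.

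Runx1t1 was a transcript of mural and stromal cells. In pericyte-like cells, named from Rgs5, Acta2, Notch3 and Mcam, the lowest, median and highest batch 2 libraries were at 306, 425 and 664 CPM (mean 451 ± 120 CPM, n = 8). In fibroblast-like cells, named from collagen genes, Dcn and Lum, they were at 193, 288 and 477 CPM (mean 301 ± 93.1 CPM, n = 8). The ranges overlapped, but pericyte-like cells were above fibroblast-like cells in 7 of 8 libraries, by 0.58 ± 0.57 on the log2 scale (exact permutation p = 0.0391, adjusted p = 0.255). These classes, 0.407% and 0.90% of the kept cells, held 23.0% and 40.0% of the 265 Runx1t1 UMIs. The tumor transcript Pvt1 in pericyte-like and fibroblast-like cells was at 0.486 and 0.457 of its level in tumor-like cells, and its part in these levels was not tested.

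Outside these classes Runx1t1 was scarce. Endothelial-like cells held 4 UMIs in 5 batch 2 libraries (mean 52.7 ± 52.7 CPM) and myeloid-like cells 8 UMIs in 7 (26.0 ± 39.4 CPM). T-like cells held 2 UMIs, epithelial-like cells 1, and dendritic-like cells 0 of 226155 UMIs, which allows up to 13.3 CPM. Free RNA of batch 2 held it at 37.6 CPM, above each of the tumor-like, T-like and epithelial-like levels. In batch 1 it was at 26.5 CPM, from 2 UMIs, in the only fibroblast-like sample with enough cells. The KO library of batch 1, with 9 fibroblast-like cells, was below the limit of 10. The fibroblast-like cluster of batch 1, both libraries together, held 10 Runx1t1 UMIs in 20 cells (69.7 CPM).

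The study measured Runx1t1 in cultured E0771 cells and reported it higher after AGO1 knockdown in endothelial cells. Its methods also list a RUNX1T1 antibody for western blots. Those cultures are a setting unlike the tumors here. In tumor-like cells, the class closest to that question, the mean was 1.80 ± 0.356 CPM (n = 8) in batch 2, from 76 UMIs in 8 libraries. To set this against free RNA, the share of free RNA in each class was estimated from the UMIs of the other classes' markers, with a median of 6.14% in tumor-like cells of batch 2. At that share, free RNA alone would give 92.4 Runx1t1 UMIs, and 2 of 8 libraries were above their expected number. Runx3, with 50 UMIs counted and 52.3 expected, and Cbfa2t3, with 79 counted and 67.5 expected, were likewise at the level of free RNA. Runx1 (45606 counted and 1520 expected), Runx2 (12911 and 492), Cbfb (8148 and 275) and Cbfa2t2 (16094 and 417) were above expectation in 8 of 8 libraries. At this depth, Runx1t1 over the tumor-like class as a whole could not be told apart from free RNA. The counts in pericyte-like (61 counted and 1.37 expected) and fibroblast-like cells (96 and 2.11) could. Of the 76 UMIs, 21 lay in 1 tumor-like cluster, for which the share of free RNA was not estimated.

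**Figure D2:**
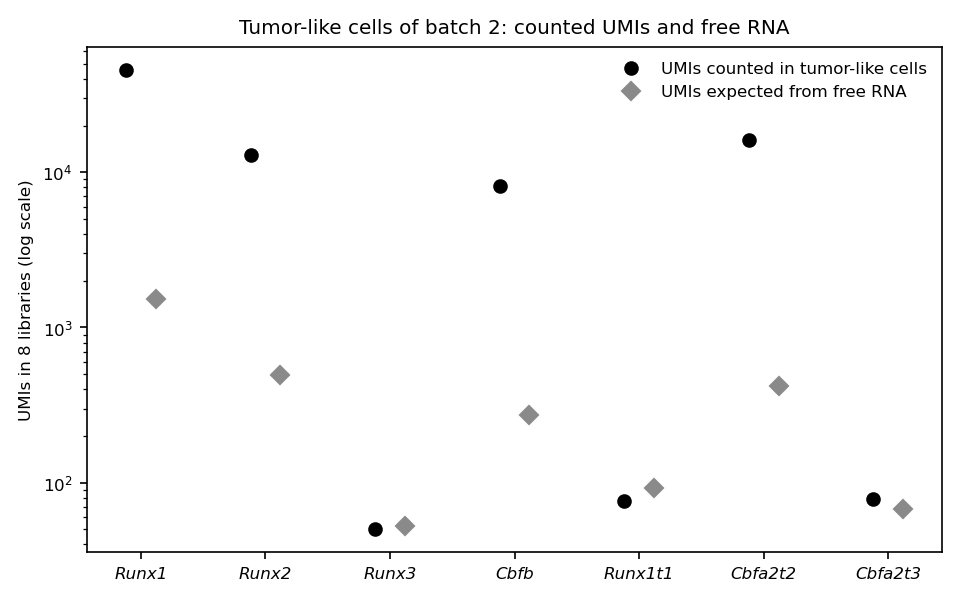
UMIs of each gene counted in tumor-like cells of the 8 batch 2 libraries (black circles) and the number expected from free RNA (grey diamonds), on a log y axis. Runx1, Runx2, Cbfb and Cbfa2t2 lie far above the free RNA, while Runx3, Runx1t1 and Cbfa2t3 lie beside it, as for Runx1t1 with 76 counted and 92.4 expected.

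The quantitative PCR of the study used the primers below, shown because they read less of Runx1t1 than a 3′ count does. Both match this gene alone among the annotated mouse transcripts.
Runx1t1 forward: atgcctgatcgtaccgagaag
Runx1t1 reverse: gtcgttggcgtaaatgagctg

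The forward primer crosses the junction of exons 1 and 2, from chr4:13785135 to chr4:13835646 on mm10, and matched 1 of 6 annotated Runx1t1 transcripts. The reverse primer lies in exon 2, at chr4:13835748-13835768, and matched 5. Both lie in coding sequence and bound 143 bases of Runx1t1-202. The gene itself spans chr4:13743436-13893649 on the plus strand and overlaps no other annotated gene, nor does Cbfa2t2. On the opposite strand, Runx2 overlaps Supt3 and 3 antisense genes, Cbfa2t3 overlaps Gm20388 and Gm10612, and Runx1 and Runx3 each overlap an antisense gene. If strand was ignored in counting, their reads could not be told apart from those of the members, and the strand setting was not given in the sources used here. On the same strand, small RNA genes or pseudogenes outside the feature table lie within Runx2, Cbfb and Cbfa2t3.

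Cbfa2t2 resembled Cbfb in its spread. Batch 2 means were 378 ± 103 CPM in epithelial-like (n = 5) and 377 ± 37.3 CPM in tumor-like cells (n = 8), and the lowest, in T-like cells, was 237 ± 87.9 CPM (n = 8). It was the ETO family member that tumor-like cells held well above free RNA. In batch 1 it was at 148 CPM in tumor-like and 29.7 CPM in myeloid-like cells.

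Cbfa2t3, known for its complexes with Tal1 and E proteins in blood cells, was highest in dendritic-like cells. The lowest, median and highest batch 2 libraries were at 243, 454 and 599 CPM (mean 448 ± 107 CPM, n = 7), against 233 ± 126 CPM (n = 8) in pericyte-like cells. Dendritic-like cells were higher in 7 of 7 libraries, by 1.12 ± 0.74 on the log2 scale (exact permutation p = 0.0156, the smallest that 7 libraries allow, adjusted p = 0.191). Both dendritic-like clusters held it, at 576 CPM in the cluster with Xcr1 and Clec9a and at 330 CPM in the cluster with Ccr7 and Fscn1. Dendritic-like cells of batch 1 were at 202 CPM in the WT and 146 CPM in the KO library. Endothelial-like cells of batch 2 were at 119 ± 156 CPM (n = 5) from 8 UMIs, where free RNA would give 0.417. Fibroblast-like, myeloid-like and T-like cells were at 39.1 to 44.2 CPM. They held 14, 21 and 15 UMIs, where free RNA would give 1.57, 2.05 and 2.42. Tumor-like cells were at 1.86 CPM, and epithelial-like cells held 0 UMIs, which allows up to 12.6 CPM.

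Over the 7 genes, 49 pairs of classes that neighbour each other in the order of mean levels were compared, and none had an adjusted p under 0.05. The lowest was 0.191 (exact sign-flip permutation test). With 3 to 5 shared libraries, many pairs could not reach an unadjusted p of 0.05. The orders are therefore descriptions, and neighbouring classes were not shown to differ beyond the spread between libraries.

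Across 14 points of class and batch and 11179 genes, the level of Runx1t1 was most like that of Lama2 (Pearson r = 0.940), Adamts12 (0.937) and Ebf2 (0.935). Runx3 was most like Vav1 (0.950), Ms4a6b (0.947) and Cd48 (0.945), and Cbfa2t3 like Cacnb2 (0.908), Zbtb46 (0.839) and Map4k4 (0.802). Zbtb46 is a factor of classical dendritic cells, and Lama2 a laminin chain of basement membranes. For Cbfb the nearest were Bclaf1, Slc25a36 and Sp1 (0.962 to 0.958), for Runx1 Trpm3, Dcun1d3 and Sntg1 (0.914 to 0.895) and for Runx2 Cstf3, Aebp2 and Rad51b (0.913 to 0.866). The points share libraries, depth and free RNA, so these values describe likeness only.

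The comparison of EC-AGO1-KO with WT asks whether loss of Ago1 in host endothelium moved these genes in any class. UMIs summed per library and class were fitted with edgeR's quasi-likelihood test with batch as a covariate, and p-values were adjusted by Benjamini-Hochberg over all genes tested in a class. No member was called. Of 33 member fits, 0 had an adjusted p under 0.05 in edgeR and 2 an unadjusted p under 0.05, and DESeq2 and limma voom also gave 0 and 2. Over all genes, the share called was 0% of 14181 in all kept cells, 0% of 13091 in tumor-like, 0.0989% of 2022 in myeloid-like, 0% of 1507 in T-like, 0% of 729 in dendritic-like, 0.478% of 209 in endothelial-like, 0% of 259 in pericyte-like, 0.106% of 1886 in fibroblast-like and 0% of 934 in epithelial-like cells. In the 26 fits within named classes the log2 fold changes of members ran from -0.47 to 0.55, with adjusted p of 0.846 or more. Members per class that passed the filter on low counts were 7 in all kept cells, 6 in tumor-like, 5 in T-like and fibroblast-like, 4 in myeloid-like, 3 in epithelial-like, 2 in dendritic-like, 1 in pericyte-like and 0 in endothelial-like cells. The median log2 fold change of members was -0.17 in tumor-like cells, beside 0.00 over all genes tested there.

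**Figure D3:**
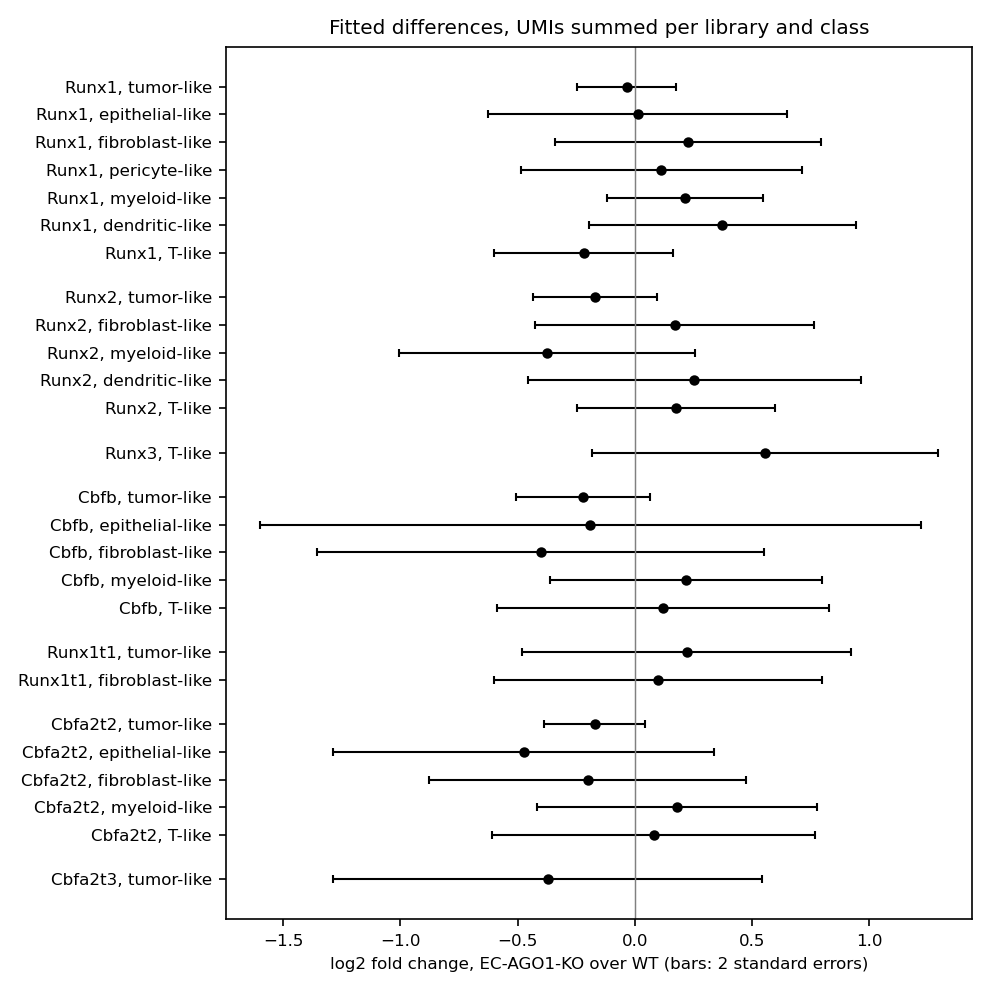
Fitted log2 fold changes of EC-AGO1-KO over WT for each gene and named class that passed the filter on low counts (points), with bars of 2 standard errors from edgeR. All 26 bars cross 0, and the points run from -0.47 for Cbfa2t2 in epithelial-like cells to 0.55 for Runx3 in T-like cells.

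Runx1t1 in tumor-like cells was at 0, 1.60, 1.85, 1.74 and 1.51 CPM in the WT libraries (batch 1, then WT 1, 3, 4 and 5) and at 0.193, 1.84, 1.35, 2.51 and 2.03 CPM in the KO libraries (batch 1, then KO 1, 2+3, 4 and 5+6). The groups overlapped in batch 2. The means were 1.34 ± 0.759 and 1.58 ± 0.881 CPM (n = 5 each), and the exact two-sided permutation test within batch gave p = 0.271. The fitted log2 fold change was 0.22 ± 0.35 (SE, adjusted p = 0.943, edgeR's quasi-likelihood test). These counts were at the level of free RNA, in which Runx1t1 was at 19.2 to 40.3 CPM in WT and 37.7 to 54.7 CPM in KO of batch 2.

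In pericyte-like cells of batch 2, where Runx1t1 was highest, the WT libraries were at 430, 306, 571 and 360 CPM and the KO libraries at 664, 496, 364 and 419 CPM. The groups overlapped widely, with means of 417 ± 115 and 486 ± 130 CPM (n = 4 each, exact permutation p = 0.486, smallest possible 0.0286). In fibroblast-like cells of batch 2, WT libraries were at 193, 371, 243 and 335 CPM and KO libraries at 292, 477, 211 and 284 CPM. These overlapped as well, and the fitted log2 fold change over both batches was 0.10 ± 0.35 (n = 5 WT and 4 KO, adjusted p = 0.986, edgeR's quasi-likelihood test).

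Runx1 in tumor-like cells of batch 2 was at 1041, 1130, 1134 and 971 CPM in WT and at 1014, 1123, 1098 and 1114 CPM in KO, and at 298 and 296 CPM in batch 1. The groups overlapped, and the log2 fold change was -0.04 ± 0.11 (n = 5 each, adjusted p = 0.974, edgeR's quasi-likelihood test), so an interval of 2 standard errors ran from -0.25 to 0.18. In epithelial-like cells, the class with its highest level, it was 2816 ± 123 CPM in 2 WT and 2813 ± 355 CPM in 4 KO libraries (0.01 ± 0.32, adjusted p = 0.998, same test). Cbfb in the same cells was at 297 ± 237 and 190 ± 151 CPM (-0.19 ± 0.70, adjusted p = 0.998, edgeR), and Cbfa2t2 at 433 ± 120 and 283 ± 138 CPM (-0.47 ± 0.41, adjusted p = 0.901, edgeR). The small number of epithelial-like samples leaves these intervals wide.

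In T-like cells, the batch 2 libraries of WT and KO did not overlap for Runx3 and Runx1, in opposite directions. Runx3 was at 62.9, 55.1, 94.0 and 39.6 CPM in the WT libraries of batch 2 and at 203, 188, 129 and 179 CPM in the KO libraries. These values rest on 6 and 59 UMIs, and in batch 1 the WT level was 275 CPM and the KO level 260 CPM. Over both batches the log2 fold change was 0.55 ± 0.37 (n = 5 each, adjusted p = 0.943, edgeR's quasi-likelihood test). Without the KO library of batch 1 it was 1.62 (unadjusted p = 0.00721, adjusted p = 0.776, edgeR), and in batch 2 alone the gene was removed by the filter on low counts.

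For Runx1, the WT libraries of batch 2 were at 1195, 1239, 1316 and 1229 CPM and KO libraries at 958, 937, 1017 and 1030 CPM, without overlap, while in batch 1 WT was at 275 CPM and KO at 355 CPM. Runx2 in T-like cells was at 1006, 1266, 1410 and 753 CPM in WT and at 1248, 1401, 721 and 1501 CPM in KO of batch 2. These overlapped, with a log2 fold change of 0.18 ± 0.21 (adjusted p = 0.967, edgeR's quasi-likelihood test). Of all genes with at least 65 UMIs in T-like cells of batch 2, the groups did not overlap for 2.86% of 1537. Over the 63 pairs of gene and class, 3 showed no overlap in batch 2, the third being Cbfb in endothelial-like cells (WT 189 to 258 CPM and KO 0 to 157 CPM, exact permutation p = 0.0571, the smallest possible), where 7.76% of 1700 genes with at least 12 UMIs did not overlap. Pvt1, the tumor transcript, was lower in KO endothelial-like cells (log2 fold change -1.39, adjusted p = 0.0386, edgeR's quasi-likelihood test), and its part in the Cbfb difference was not tested. The cluster led by Ikzf2 and Ctla4 held 189 WT and 551 KO cells and the cluster led by Satb1 and Lef1, with the mast cell markers, held 132 and 410. Without the latter cluster, an alternative added after seeing the data, Runx3 was not fitted, and the log2 fold changes were -0.18 for Runx1 and 0.34 for Runx2 (adjusted p = 0.948 and 0.925, edgeR).

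**Figure D4:**
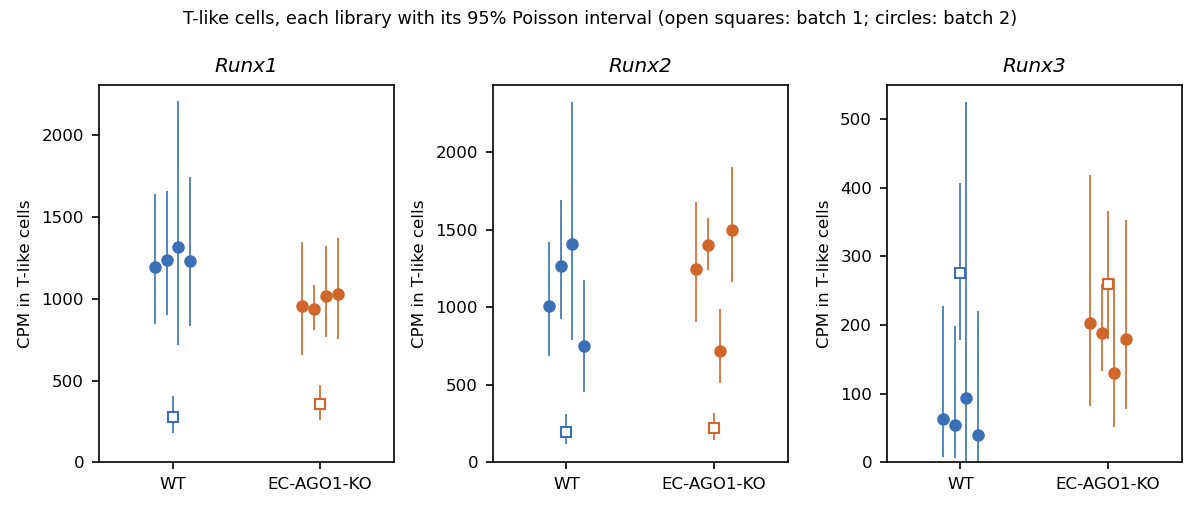
Levels of Runx1, Runx2 and Runx3 in T-like cells, in CPM on a linear y axis, for each WT (blue) and EC-AGO1-KO (orange) library. Open squares are batch 1, circles are batch 2, and bars are exact 95% Poisson intervals of the UMI count, which cover counting error only. The batch 2 circles of Runx3 lie at 39.6 to 94.0 CPM in WT and 129 to 203 CPM in KO, while the batch 1 squares lie side by side.

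Cbfa2t3 in dendritic-like cells of batch 2 was at 487, 454 and 419 CPM in the 3 WT libraries with at least 10000 UMIs and at 105 CPM in WT 4. The KO libraries were at 452, 599, 243 and 484 CPM, and the groups overlapped. Over both batches the means were 333 ± 170 and 385 ± 185 CPM (n = 5 each, exact permutation p = 0.614). Of 31 such tests, on members below the filter on low counts and on Runx1t1 in tumor-like cells, 0 had a p under 0.05. The 7 in endothelial-like cells could not go below 0.0571 nor the 4 in epithelial-like cells below 0.133, and in 5 of the 31 the member had 0 UMIs (exact permutation tests).

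In all kept cells together, Runx3 had a log2 fold change of 0.93 ± 0.33 (unadjusted p = 0.0132, adjusted p = 0.456) and Cbfa2t2 of -0.22 ± 0.10 (unadjusted p = 0.0492, adjusted p = 0.536), both from edgeR's quasi-likelihood test. The Runx3 levels of batch 2 were 1.86, 4.23, 1.60 and 2.29 CPM in WT and 4.49, 12.04, 4.05 and 5.93 CPM in KO. They overlapped between WT 3 and KO 4, and KO 2+3 was the highest. The same libraries held 95, 112, 38 and 74 T-like cells in WT and 104, 538, 172 and 145 in KO, and the part of these cell numbers in the Runx3 difference was not tested. With no filter on low counts, Runx3 was called in all kept cells (log2 fold change 0.90, adjusted p = 0.0136, edgeR), the only call among 643 member fits under alternatives. In that setting 242 of 27390 genes were called in all kept cells, against 0 of 14181 with the filter.

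Whether the KO effect on a gene differed between classes was tested for 25 pairs by an exact permutation of labels within batch. The lowest p was 0.0571, for Runx1 in myeloid-like against T-like cells (difference of log2 effects 0.39, adjusted p = 0.821).

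A list of 55 genes that work with these factors was read in the same fits: 18 corepressors and chromatin partners, 12 partners of the ETO family in E-box and GATA complexes, and 25 known Runx targets. Of the 40 tested in all kept cells, 0 rose and 0 fell in edgeR's quasi-likelihood test, and 7 had an unadjusted p under 0.05, beside 1313 of all 14181 genes tested. In tumor-like cells 30 were tested with 0 called and 2 at an unadjusted p under 0.05, and in T-like cells 10, with 0 and 1. In the other classes 2 to 9 were tested with 0 called and 0 at an unadjusted p under 0.05. The median log2 fold change of the list was 0.00 in all kept cells, -0.06 in tumor-like and 0.25 in T-like cells, beside 0.00, 0.00 and -0.03 over all genes tested.

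Gata3, a factor of T cells and of mammary epithelium, had the lowest p of the list. It was at 1.39, 7.17, 6.81, 8.73 and 10.7 CPM in the WT libraries and at 2.15, 27.6, 35.2, 11.8 and 29.7 CPM in the KO libraries of all kept cells (batch 1 first). In batch 2 the highest WT library, WT 5 at 10.7 CPM, lay just below the lowest KO library, KO 4 at 11.8 CPM. The share of all genes so separated in all kept cells was not counted. The log2 fold change of Gata3 was 1.47 ± 0.26 (adjusted p = 0.401, edgeR's quasi-likelihood test). DESeq2, which called 2 of 14181 genes in all kept cells, called Gata3 (adjusted p = 0.00901). With no filter on low counts, 242 of 27390 genes were called in all kept cells, 207 of them higher and 35 lower in KO. Among them were 4 of the list, which like most of the called genes were higher in KO: Gata3 (1.43, adjusted p = 1.06e-09, edgeR), Gzmb (1.56, adjusted p = 1.36e-05), Tbx21 (1.5, adjusted p = 0.000122) and Prf1 (1.51, adjusted p = 0.0451). Gzmb and Prf1 encode cytotoxic granule proteins and Tbx21 a T cell factor, and the numbers of T-like cells given above moved with them, a part that was not tested. Within T-like cells the log2 fold change of Gata3 was 0.30 ± 0.25 (adjusted p = 0.943, edgeR). The batch 2 libraries held 6 to 72 epithelial-like cells in WT and 15 to 178 in KO, and the part of cell numbers in the Gata3 difference was not tested. The myeloid targets Csf1r and Spi1 in myeloid-like cells were at 0.07 ± 0.27 and -0.12 ± 0.24 (adjusted p = 0.989 each, edgeR), and the targets Spp1 and Cdkn1a in tumor-like cells at -0.26 ± 0.26 and 0.04 ± 0.19 (adjusted p = 0.892 and 0.981, edgeR). Cd4 and Zbtb7b, which Runx3 and Runx1 repress in cytotoxic T cells, were at 0 to 7 UMIs in T-like cells of each library and were not fitted.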

How the data were processed

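The authors deposited raw UMI counts per gene and barcode, made with Cell Ranger 7.1.0 on mm10 according to the submitters' processing notes, with empty droplets included. Whether introns were counted was not given in the sources used here. Cells were barcodes with between 200 and 7000 genes in which mitochondrial genes took no more than 10% of UMIs. Actb, 1.99 to 2.27% of UMIs in batch 1 and 8.77 to 17.0% in batch 2, was left out of totals. Doublets were not called. Clusters stayed unnamed for under 3 markers or for a high level of tumor transcripts, and none for markers of a competing class. The cluster with mast cell markers stayed in the T-like class.

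Cells were clustered on 2000 variable genes without the 7 members, 30 principal components and 15 neighbours (Leiden resolution 1, scanpy 1.11.5, leidenalg 0.10.2), and the cells outside the tumor clusters were clustered again. A class name needed at least 3 markers among the 100 leading genes of a cluster, 2-fold higher and found in 2% of its cells. Clusters with Pvt1 and Cdh13 above 0.6 of their tumor-like level stayed unnamed. These thresholds were set after clusters and members' levels had been seen, and the members and gene lists were chosen with earlier results of these data known.

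The library was the sample. Levels by class used samples with at least 10 cells and 10000 UMIs. UMIs per library and class were tested with edgeR 4.0.16 (TMM, filterByExpr, quasi-likelihood, batch term), with DESeq2 1.42.0 and limma 3.58.1 as alternatives, and single values by exact two-sided permutation tests within batch or, between classes, by sign flips within libraries. On simulated counts in which 200 genes were given a log2 change of 2, 95% of these were recovered in tumor-like (13091 genes), 91% in myeloid-like (2022) and 86% in T-like cells (1507). False calls were 4, 6 and 7. Smaller changes, such as those fitted for the members, were not simulated, so the recovery at those sizes is not known. Named genes were all members in the class with their highest tested level, Runx1t1 and Runx1 in tumor-like cells, and the 3 genes most alike, which for Cbfa2t2 are not reported here. Other genes named (Gata3, Csf1r, Spi1, Spp1, Cdkn1a, Cd4, Zbtb7b) were chosen from the partner list after their values were seen.

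The share of free RNA was estimated from markers of other classes. A first estimate gave 100% in stromal classes, and Ebf1 and Pecam1, which those cells express, were then left out. Intervals and floors (3 counts) cover counting error only. Replicate libraries differed by more than sampling noise (chi-square per degree of freedom of 5.4 to 32.1), and separate tumors are given as their source.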

Additional observations from a re-analysis of the deposited data

Results flagged for a closer look

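In 3 of 77 groups of 4 libraries, 1 library stood apart from the others of its group, and chance alone flags about 1 in 20 groups. Runx2 in myeloid-like cells of WT 4 was at 0 CPM, with the nearest WT library of batch 2 at 247 CPM. Cbfb in myeloid-like cells of KO 4 was at 18.9 CPM, with the nearest KO library at 247 CPM. Runx2 in dendritic-like cells of WT 4 was at 210 CPM, with the nearest WT library at 545 CPM. WT 4 held only 32 myeloid-like and 17 dendritic-like cells.

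Barcodes with at most 50 UMIs were not tested between groups. They held Runx1t1 at a batch 2 mean of 37.6 CPM, against 5.34 CPM in all kept cells. They held Cbfa2t3 at 27.6 CPM, against 5.72 CPM.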

How the results depend on the processing

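Over the alternatives run, no member was called in a named class. No principal result was under the threshold in the main setting, and many alternative values are counts of called members that stayed at 0. With that limit, 281 alternative values kept their side of the threshold and, where they had one, their direction. Values from pooled UMIs, which have no test, were judged by the spread between libraries. The alternative values that did not stay the same are given next. With no filter on low counts, 1 member was called in all kept cells (Runx3), where 242 of 27390 genes were called. With UMIs pooled over libraries, the log2 difference of Runx1 between epithelial-like and myeloid-like cells was 1.69 in place of 0.12, as pooling adds batch 1, which lacks epithelial-like cells. Leaving out each library in turn, the difference of Cbfa2t2 between epithelial-like and tumor-like cells ran from -0.0668 to 0.181 (-0.0668 without WT 4, -0.0223 without KO 1, 0.0704 without WT 5), that of Runx1t1 in tumor-like cells between KO and WT from -0.0881 (without WT of batch 1) to 0.594 CPM, as this difference of means has no batch term and dropping 1 batch 1 library leaves the other, lower one in 1 group (the fitted log2 fold change with a batch term ran from 0.16 to 0.34), the fold change of Runx1 in epithelial-like cells from -0.0571 to 0.0728 (-0.0400 without KO 2+3) and that of Runx1t1 in fibroblast-like cells from -0.185 to 0.275 (-0.0695 without WT 1).

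Other fold changes, none called, turned direction, and the cause was not tested. Runx1 in epithelial-like cells was -0.00656 with DESeq2, -0.00963 without TMM, -0.00549 at resolution 0.5, -0.0289 with Actb kept and -0.16 without the pooled KO libraries. Without those pooled libraries, Runx2 in T-like cells was -0.11, Runx1t1 in fibroblast-like cells -0.24 and Cbfa2t3 in tumor-like cells 0.12. Cbfb in epithelial-like cells was 0.14 with limma voom, and Runx1 in tumor-like cells 0.0184 without TMM. With a replicate block in place of the batch term, Runx2 in T-like cells was -0.0700 and no member was called. Same-numbered libraries correlated at -0.27 (number 1) and -0.38 (number 4) in their deviations. WT and KO libraries of unlike number correlated at -0.277 to 0.455. These values do not settle whether same-numbered libraries were paired.

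With free RNA subtracted, Cbfb and Cbfa2t2 were highest in pericyte-like cells. That class held only 30 Cbfb and 48 Cbfa2t2 UMIs in batch 2. Its estimated share of free RNA ran from 6.76 to 80.2%, and a high share scales the remaining level up steeply. In batch 1 alone, which lacks pericyte-like and epithelial-like samples, Runx1 and Runx1t1 were highest in fibroblast-like, Runx2 in dendritic-like, Cbfb in B-like and Cbfa2t2 in tumor-like cells. Leaving out KO 2+3 put Runx3 highest in dendritic-like cells. Depth limited Runx1t1 and Cbfa2t3 most, with 265 and 332 UMIs in all kept cells.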

Other observations

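The levels of the members differed between the batches. In tumor-like cells the batch 2 mean was 3.63 times the batch 1 mean for Runx1, 4.2 times for Runx2, 2.55 times for Cbfa2t2 and 2.34 times for Cbfb. In T-like and myeloid-like cells Runx3 went the other way, at 0.444 and 0.649 times its batch 1 level, while Runx1 in myeloid-like cells was at 6.28 times. Batch 1 holds 1 library per group, and sequencing platform, depth and batch cannot be told apart.

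In the tumor-like cluster led by satellite-like transcripts, Runx1t1 was at 10.4 CPM from 21 UMIs in 2469 cells, above the 1.80 CPM of tumor-like cells of batch 2. Runx3 and Cbfa2t3 were also higher there, at 3.97 CPM from 8 UMIs each, against 1.18 and 1.86 CPM. Over all tumor-like cells of batch 2, free RNA would give 2.17, 1.23 and 1.59 CPM for Runx1t1, Runx3 and Cbfa2t3. The share of free RNA in this cluster was not estimated.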
